A study of Mus musculus with 10 samples.

Results

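The clustered protocadherins are neuronal adhesion molecules of the cadherin superfamily, encoded side by side in an alpha, a beta and a gamma gene cluster. Their extracellular domains bind the identical isoform on a neighbouring cell, and each neuron combines a few isoforms chosen from the arrays, which gives the cell a surface identity that serves self-avoidance of its own branches and the wiring and survival of neurons. An alpha or gamma messenger joins a variable first exon, read from its own promoter, to constant exons common to its cluster and coding for a shared intracellular tail, whereas a beta gene has no constant exons. In mouse, most variable exons are chosen stochastically with the help of CTCF and cohesin, while the C-type isoforms at the ends of the alpha and gamma arrays are used more constitutively.

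The genes were chosen by symbol alone, and 59 of the 45952 rows of the deposited table carried a symbol of the alpha (15 rows), beta (22 rows) or gamma (22 rows) cluster. RNA-seq had been performed on neurons sorted by FACS from naïve adult Avil-EGFP mice on a CD1 background, aged 3 to 6 months, in which EGFP is driven by the advillin promoter in sensory neurons. The libraries comprised 6 of lumbar dorsal root ganglia (DRG; 3 from male and 3 from female mice) and 4 of trigeminal ganglia (TG; 2 from male and 2 from female mice). All mice carried the same transgene and none was injured, so the comparisons were DRG with TG and male with female. Values are FPKM, the fragments of a gene scaled for its length and for the depth of the library, which summed to between 543862 and 870872 per library, and sensory neuron markers summed to 14464 to 27915 FPKM in DRG libraries and to 11678 to 14673 FPKM in TG libraries. Calca, the highest of these markers, had a mean of 8216 FPKM in DRG and 3430 FPKM in TG libraries. In the fit described below, 7 of the 14 markers tested were higher and 7 lower in DRG, with a median log2 difference of 0.02. Male DRG replicate 3, female DRG replicate 1 and female DRG replicate 3 stood apart from the other libraries, with median rank correlations of 0.849, 0.869 and 0.895, against 0.933 or more in the remaining 7.

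The 3 clusters lie on the forward strand of chromosome 18 (GRCm38, GENCODE M21). The alpha array runs from the first exon of Pcdha1 at 36930184 to the last constant exon of Pcdhac2 at 37187657, the beta genes from 37264938 to 37524479, and the gamma array from 37661793 to 37841873. Each of the 22 beta members consists of 1 exon block in this annotation. Alpha members share a median of 53.6% of their exonic bases with another gene on the same strand and gamma members a median of 44.7%, against a median of 0% for the beta members. Of all stretches of 75 bases, the read length used, 91.0% to 100% of a beta member's occurred in no other gene's transcripts, against 2.48% to 57.3% for alpha members and 36.2% to 68.9% for gamma members.

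Of the 59 rows, 4 need a note on their identity. A row listed as Pcdha4 (ENSMUSG00000103458) is named Gm42416 in GENCODE M21, where it reads through into the gamma cluster, and has no exonic base of its own. A row listed as Pcdha11 (ENSMUSG00000007440) lies where RefSeq places Pcdha10, and is called Pcdha10 here. A row listed as Pcdhga8 (ENSMUSG00000023036) is Pcdhgc4 in both annotations and is called Pcdhgc4 here. The remaining Pcdha4 row (ENSMUSG00000104252) shares 91.4% of its exonic bases with other genes.

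Reads were counted for most of the family, but FPKM were listed for fewer than 1 row in 2. The authors' table of comparisons gives each gene a mean scaled count, which is the mean over the 10 libraries of its counts divided by the size factors of DESeq2. This mean was above 0 for 56 of the 59 members, whereas FPKM were above 0 in any library for 25. Of the 34 members listed at an FPKM of 0 in all 10 libraries, 31 (91.2%) had a mean scaled count above 0, against 15.3% of all genes listed at 0. Among genes with a mean scaled count of at least 10, an FPKM of 0 throughout was listed for 9 of 11 alpha members (81.8%), for 18 of 20 gamma members (90.0%) and for 0 of 18 beta members, against 8.60% of all 14662 such genes.

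For this reason the beta members are described below by FPKM in each library, and the alpha and gamma members by the mean scaled count. This mean is 1 value over all libraries and does not by itself give DRG and TG apart. The authors' own fold changes were not used. An FPKM of 0 for an alpha or gamma member is reported as listed at 0 and not as a lack of transcript. For beta members the ratio of both measures lay within that of other genes: the median was 11.2 scaled counts per FPKM and kilobase (4.93 to 12.2, 21 members), against 7.52 over all 16471 genes with a mean FPKM of at least 0.1, whose 5th and 95th percentiles were 2.07 and 17.4. Pcdhgc4 stood at 0.0559 scaled counts per FPKM and kilobase, at percentile 0.686 of those genes. How the counter treated reads in shared exons is not known, and whether that lowered this ratio was not tested.

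**Figure D1:**
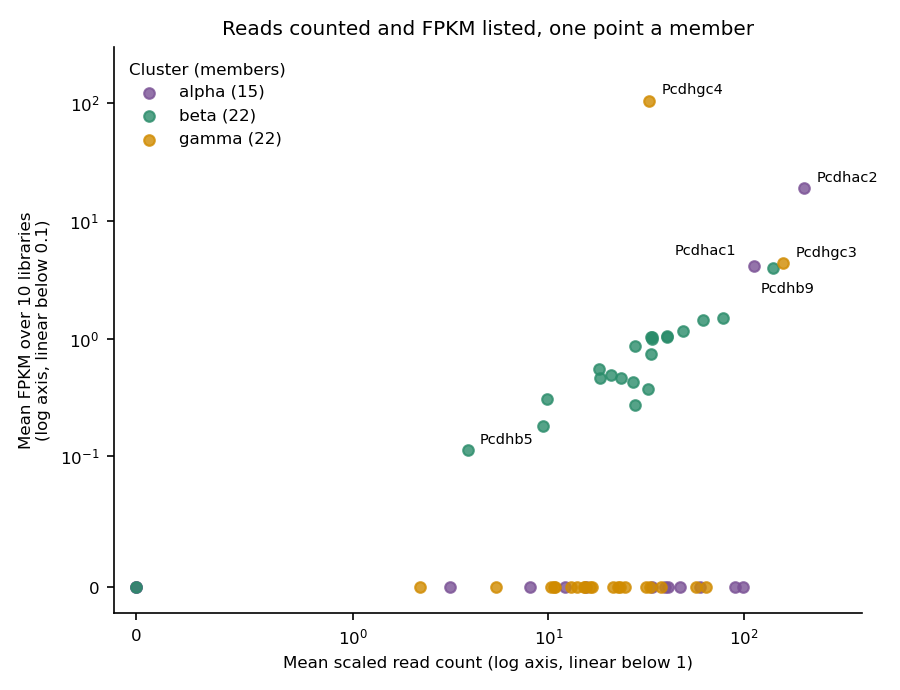
Mean FPKM over the 10 libraries against the mean scaled read count, with 1 point for each of the 59 members, coloured by cluster; both axes are logarithmic with a linear stretch near 0. Beta members lie along a line from Pcdhb5 to Pcdhb9, most alpha and gamma members lie at an FPKM of 0 with up to 99.2 scaled counts, and Pcdhgc4 lies far above the line.

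In the alpha cluster, the mean scaled count was highest for the C-type members at the end of the array. Pcdhac2 (ENSMUSG00000102697, chr18:37143503-37187657) had 203 scaled counts, the highest of the 59 members, and Pcdhac1 (chr18:37090013-37187657) had 113. Of the alternate members, whose exons are subject to stochastic choice, Pcdha12 followed with 99.2, Pcdha10 with 89.7 and Pcdha9 with 59.3. The other alternate members did not follow a steady gradient along the array: Pcdha11, between Pcdha10 and Pcdha12, had 39.6 scaled counts, below Pcdha3 (46.9) and Pcdha2 (40.8) near its start. The lowest above 0 were Pcdha8 (3.15), which lies directly beside Pcdha9, and Pcdha1 (8.02). The rank correlation between place in the array and scaled count was 0.69 over the 13 alpha members above 0 and 0.48 over the 11 of these that are not C-type, as a description of 1 mean over all libraries. Counts also depend on the length of the exons that a member does not share: per kilobase of exon unshared on the same strand, Pcdhac2 had 67.1, Pcdhac1 44.1, Pcdha12 40.1 and Pcdha8 1.27 scaled counts. Of the 2475 such bases of Pcdha12, 1944 are free of genes on the opposite strand.

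In the gamma cluster, the C-type member Pcdhgc3 (chr18:37806364-37841873) had 159 scaled counts, against a range of 5.39 to 63.6 over the 19 A- and B-type members. Pcdhgc4 had 32.9 and Pcdhgc5 had 2.21 scaled counts, so the 3 neighbouring C-type members of this cluster did not share a level. Among the other gamma members, Pcdhga11 (63.6), Pcdhga7 (57.0) and Pcdhga12 (37.9) had the highest scaled counts. Genes on the opposite strand overlap these members and Pcdhgc3. Of the bases unshared on their own strand, those free of such genes were 1256 of 2637 in Pcdhga11 and 2562 of 3098 in Pcdhga7. They were 4123 of 4545 in Pcdhga12 and 1821 of 3380 in Pcdhgc3. Whether their counts hold reads of the opposite strand was not tested. The 12 A-type members ranged from 13.9 to 63.6 with a median of 23.6, and the 7 B-type members from 5.39 to 23.3 with a median of 10.7. Per kilobase of exon unshared on the same strand, Pcdhgc3 stood at 47.1 and Pcdhgc4 at 9.46. Pcdhgb8 is annotated as a polymorphic pseudogene and had 10.7 scaled counts. Place in the gamma array and scaled count had a rank correlation of 0.19 over 22 members.

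In the beta cluster, the highest mean scaled counts were those of Pcdhb9 (140), Pcdhb17 (78.5) and Pcdhb20 (61.8), and the lowest above 0 was that of Pcdhb5 (3.86). Pcdhb1, the first gene of the array, had a mean scaled count of 0 and an FPKM of 0 in all 10 libraries. Summed over members, the scaled counts came to 764 in the alpha, 763 in the beta and 637 in the gamma cluster. These means carry no error, because the table gives 1 value for each gene, and the strand setting and the treatment of reads in shared exons during counting were not given in the sources used here. Transcripts on the opposite strand overlap several members, among them BC037039 with 119, Gm10545 with 84.9 and Gm26672 with 74.3 scaled counts, and reads of such a pair cannot be told apart here.

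**Figure D2:**
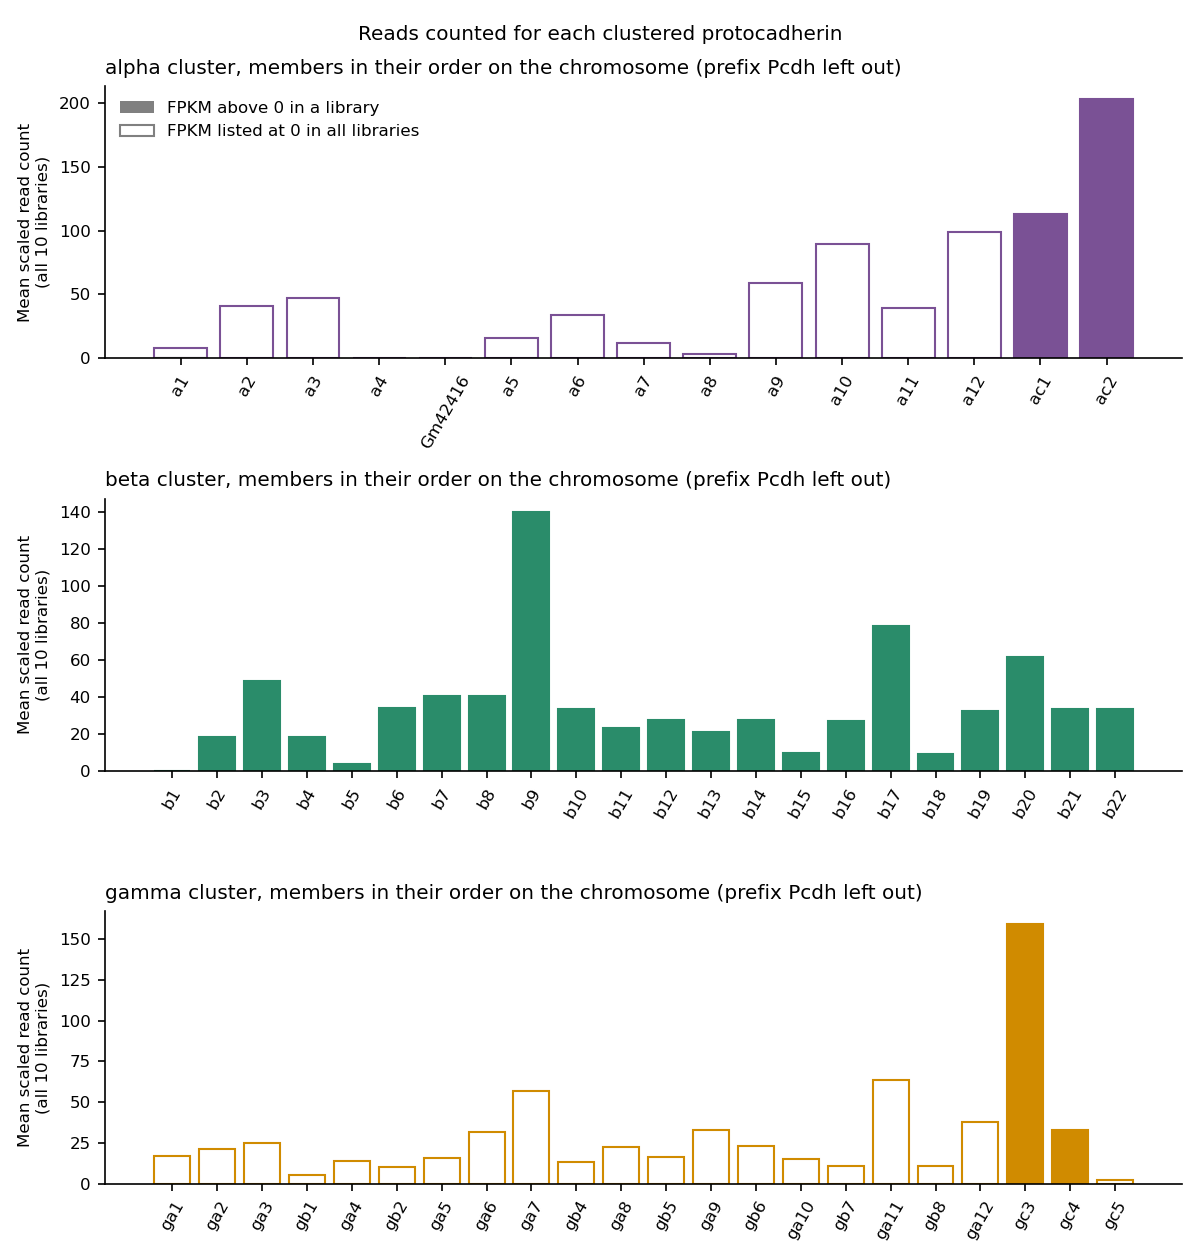
Mean scaled read count over all 10 libraries (vertical axis, from 0) for each member in the order of its start on the chromosome, in 1 panel for each cluster; filled bars are members with an FPKM above 0 in at least 1 library. The C-type members Pcdhac2, Pcdhac1 and Pcdhgc3 and the beta member Pcdhb9 had the highest values, at 203, 113, 159 and 140.

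Beta transcripts were detected in both ganglia at low levels. Of the 22 beta members, 11 reached an FPKM of 1 in 2 or more libraries of DRG or of TG, 10 were above 0 without passing that filter, and Pcdhb1 was listed at 0. Together with Pcdhac1, Pcdhac2 and Pcdhgc4, which share constant exons with their clusters, 14 of the 59 members passed. Pcdhb9 (ENSMUSG00000051242, chr18:37400855-37403909) was the highest beta member in 9 of the 10 libraries. It had 3.56, 5.85 and 0.921 FPKM in male DRG and 0.984, 3.53 and 5.92 FPKM in female DRG libraries, against 5.01 and 3.27 FPKM in male TG and 3.14 and 7.60 FPKM in female TG libraries. The ganglia overlapped: 4 DRG libraries lay within the TG range, and male DRG replicate 3 and female DRG replicate 1 lay below all 4 TG libraries.

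Pcdhb17 (ENSMUSG00000046387, chr18:37484795-37489454) was next, with 1.36, 0.925 and 0.286 FPKM in male DRG and 1.29, 1.48 and 2.25 FPKM in female DRG libraries, against 2.01 and 0.995 FPKM in male TG and 2.37 and 2.05 FPKM in female TG libraries. Pcdhb20 (ENSMUSG00000046191, chr18:37504264-37507822) had 2.07, 2.74 and 0.347 FPKM in male DRG and 0.310, 0.950 and 2.52 FPKM in female DRG libraries, against 1.01 and 0.949 FPKM in male TG and 1.504 and 1.895 FPKM in female TG libraries. The DRG and TG values of both genes overlapped, and the 2 genes did not differ from each other beyond their spread. Pcdhb3, Pcdhb7, Pcdhb22, Pcdhb8 and Pcdhb10 followed with means over the 10 libraries of 1.15, 1.05, 1.04, 1.03 and 1.03 FPKM, an order that is within the spread of the libraries. The lowest beta member above 0 was Pcdhb5, with DRG libraries from 0 to 0.327 FPKM (median 0.0800) and TG libraries at 0.127, 0.0879, 0.0884 and 0.172 FPKM.

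The ranking of the beta genes was alike in the 2 ganglia, and had no trend along the array. The rank correlation of the mean FPKM in DRG with that in TG was 0.84 over the 21 members above 0, which share base composition and mapping properties in both. Mean FPKM had a rank correlation of -0.06 with place in the array, of -0.24 with exonic length and of -0.55 with the share of unique 75-base stretches. Pcdhb9 took up 20.8% ± 6.995 of the summed beta FPKM in DRG libraries (SD, n = 6) and 21.7% ± 8.47 in TG libraries (SD, n = 4). The effective number of beta genes, taken as the inverse of the summed squared shares, was 9.40 ± 1.84 in DRG libraries (SD, n = 6) and 10.8 ± 3.30 in TG libraries (SD, n = 4). In each library, the 3 highest beta members made up between 30.6% and 57.3% of the sum.

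By the effective number of beta genes, the most uneven beta profiles were those of female DRG replicate 1 (6.86) and female TG replicate 2 (6.89). Female DRG replicate 1 alone had a beta member other than Pcdhb9 in first place, with Pcdhb6 at 2.70 FPKM, against 0.984 FPKM for Pcdhb9. Of the 21 members that were above 0 elsewhere, 6 were listed at 0 in female DRG replicate 1. Its rank correlation with the mean profile of the other 9 libraries was 0.38, against 0.56 to 0.82 in the others. Male DRG replicate 3 was low throughout, with a beta sum of 3.64 FPKM, but its profile correlated at 0.73 with the mean of the rest. It held the lowest value of the 10 libraries for 7 of the 21 members, and female DRG replicate 1 held it for 9.

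**Figure D3:**
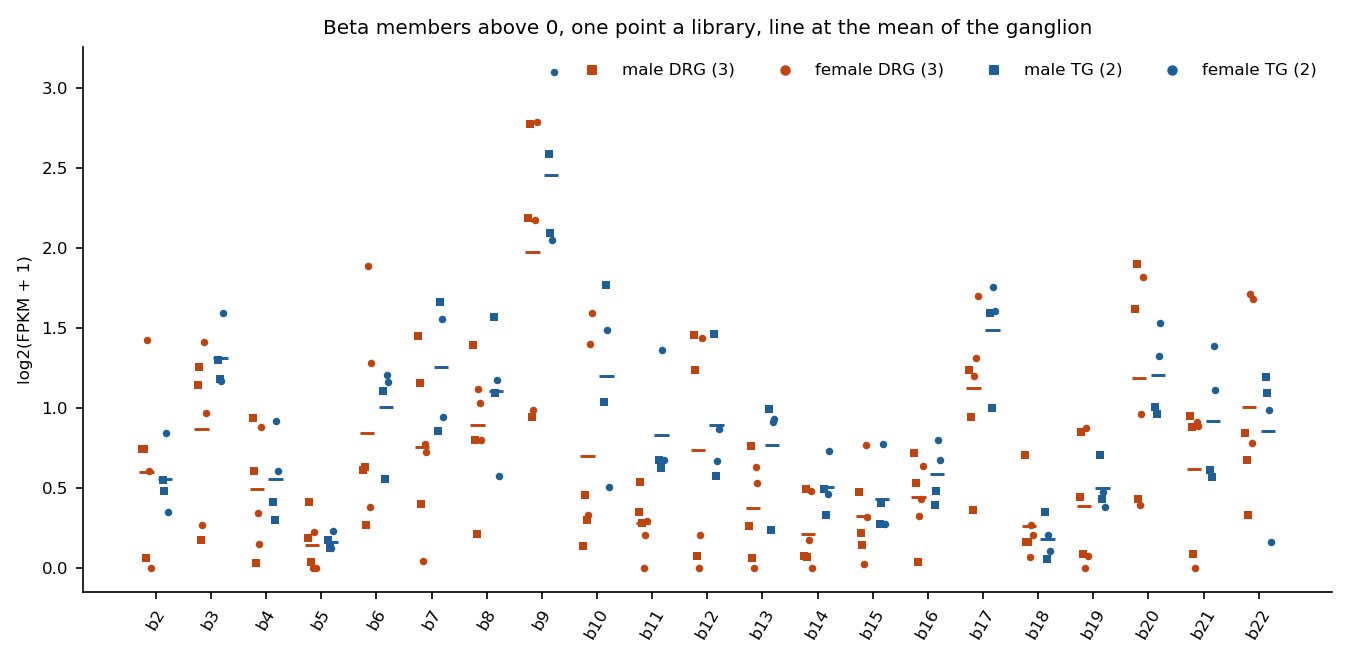
log2(FPKM + 1) of the 21 beta members above 0, in their order on the chromosome, with 1 point for each library (squares male, circles female; DRG left of TG) and a line at the mean of each ganglion. Pcdhb9 stands highest in both ganglia, and the DRG points reach lower than the TG points for most members.

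The spread of the beta members was wider in DRG than in TG libraries. The coefficient of variation was higher in DRG for 21 of 21 members (median 84.2% in DRG libraries and 47.6% in TG libraries), and also for 77.7% of the 7862 genes of the same range of mean FPKM, whose medians were 74.7% in DRG and 47.6% in TG libraries. Without male DRG replicate 3, the median in DRG was 74.1% for the beta members and 72.8% for the other genes of that range, so the spread of the beta members was close to that of genes at their level.

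No tested clustered protocadherin passed for a difference between DRG and TG, and the 45 of 59 members below the filter did not enter the main fit. The study set DRG beside TG neurons, and log2(FPKM + 1) was fitted with limma with terms for ganglion and sex. Of the 14 members tested, 0 had an adjusted p below 0.05 (lowest adjusted p = 0.233, limma), against 0.111% of the 12637 genes tested, and 2 had an unadjusted p below 0.05, against 6.35% of all genes. These 2 were Pcdhgc4 and Pcdhac2. Pcdhac2 had passed the filter through DRG alone, where it is higher, and was listed at 0 in 3 TG libraries. The libraries of DRG and TG did not separate without overlap for any of the 14 members, against 1.95% of all genes tested.

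For the beta cluster, the fitted mean was lower in DRG than in TG for 10 of the 11 members tested, against 55.7% of all genes tested that were higher in TG. One of the 10, Pcdhb21, had passed the filter through TG alone, where it is higher, so the filter took part in setting its direction, and Pcdhb12 had passed through DRG alone. The median difference was -0.30 on the log2(FPKM + 1) scale for these 11 members and -0.05 for all genes, and the median 95% interval reached 0.66 to either side of a beta member's estimate. On this scale, a fold change of a gene near an FPKM of 1 is understated. The difference was -0.48 ± 0.43 (SE) for Pcdhb9 (adjusted p = 0.849, limma; exact permutation p = 0.338, two-sided), -0.36 ± 0.25 for Pcdhb17 (adjusted p = 0.812, limma) and -0.02 ± 0.36 for Pcdhb20 (adjusted p = 0.991, limma). The 95% interval for Pcdhb9 ran from -1.41 to 0.45, which holds both lower and higher levels in DRG. Its difference shrank most when 1 of 3 libraries was dropped: -0.26 when this was male DRG replicate 3, -0.24 when female DRG replicate 1 was dropped, and -0.25 when female TG replicate 2 was. Without male TG replicate 1 the difference was -0.41, also smaller in size. It was -0.07 when all 3 libraries that stood apart were dropped.

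The summed beta FPKM was 16.2 ± 7.42 in DRG libraries (SD, n = 6) and 21.8 ± 2.97 in TG libraries (SD, n = 4). The single sums were 19.9, 21.2 and 3.64 FPKM in male DRG and 11.6, 17.03 and 23.8 FPKM in female DRG libraries, against 22.4 and 17.5 FPKM in male TG and 24.3 and 23.0 FPKM in female TG libraries. The lowest sums, 3.64 and 11.6 FPKM, belong to male DRG replicate 3 and female DRG replicate 1, which stood apart over all genes. Without male DRG replicate 3 the DRG libraries averaged 18.7 ± 4.64 FPKM, with a range of 11.6 to 23.8, and the log2 ratio of the mean sums was -0.22 in place of -0.43, and without all 3 libraries that stood apart it was -0.17. The median fitted difference of the 11 beta members was -0.21 without male DRG replicate 3 and -0.08 without the 3 libraries. In sorted bulk samples, fewer cells with a transcript and less transcript per cell cannot be told apart.

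Satellite glial cells are named as a contaminant in the labels, and markers of other cells were read beside the beta sum. Of the 10 Schwann cell and myelin markers tested of 12, 9 had a lower fitted mean in DRG, against 55.7% of all genes tested. Of these 9, 4 had an unadjusted p below 0.05, against 6.35% of all genes tested in either direction. Prx, 1 of these 4, had passed the filter through TG alone, so the filter took part in setting its direction. It had 0.390 ± 0.405 FPKM in DRG libraries (SD, n = 6) and 1.12 ± 0.473 FPKM in TG libraries (SD, n = 4). Of the 10, 0 passed at an adjusted p of 0.05. The remaining one, Drp2, was at 2.89 FPKM in DRG and 1.24 FPKM in TG libraries (unadjusted p = 0.0455, limma). The summed FPKM of these markers ran from 887 to 1389 in DRG libraries and from 1341 to 1925 in TG libraries. The 14 satellite glia markers, of which 7 were lower (1 at an unadjusted p below 0.05) and 7 higher in DRG, summed to between 2066 and 6062 FPKM in DRG libraries and between 4644 and 6057 FPKM in TG libraries, with 0 of them listed at 0. Macrophage markers summed to at most 17.5 FPKM in DRG and 15.4 FPKM in TG libraries, fibroblast markers to at most 33.6 FPKM in DRG and 36.1 FPKM in TG libraries, and endothelial markers to at most 61.8 FPKM in DRG and 44.6 FPKM in TG libraries. Their part in the beta values was not tested.

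Pcdhb11 was below the filter and was singled out after its values were seen, because it was the only beta member whose libraries did not overlap. It had 0.272, 0.451 and 0.214 FPKM in male DRG and 0, 0.151 and 0.226 FPKM in female DRG libraries, against 0.595 and 0.539 FPKM in male TG and 1.57 and 0.592 FPKM in female TG libraries. Such a separation was seen for 1 of the 21 beta members above 0, and for 1.34% of the 22301 genes above 0 in any library. Its mean scaled count was 23.5.

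**Figure D4:**
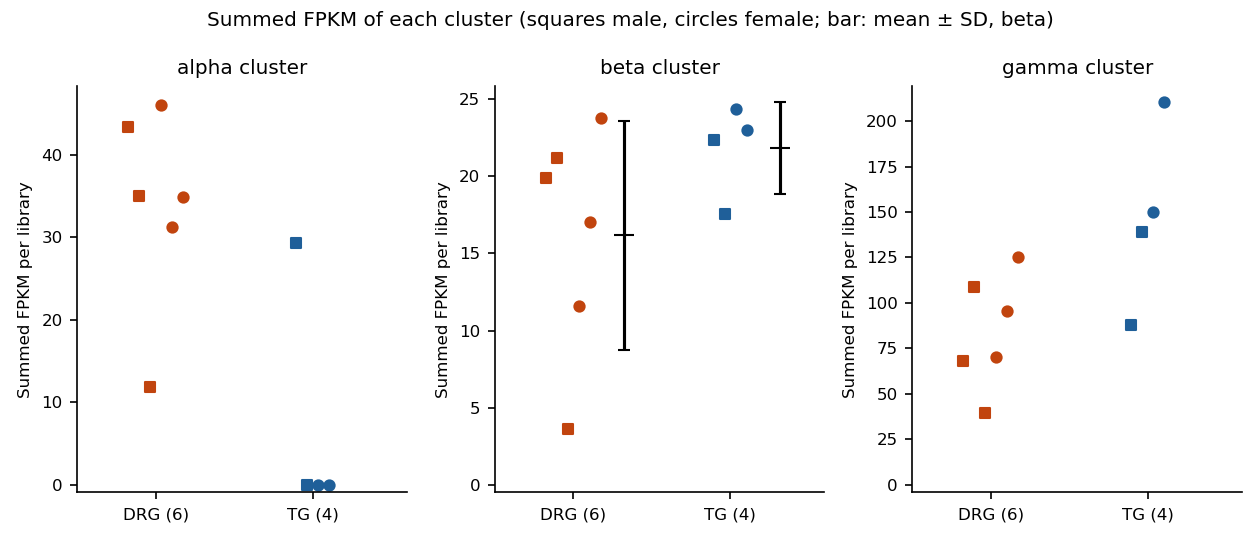
Summed FPKM of the members of each cluster in each library, with DRG left of TG (squares male, circles female); the bar beside the beta points is the mean ± SD, 16.2 ± 7.42 for DRG and 21.8 ± 2.97 for TG. The beta sums overlap, the alpha sum is listed at 0 in 3 of the 4 TG libraries, and the gamma sum consists of Pcdhgc4 in all libraries but female TG replicate 1.

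The alpha and gamma FPKM were carried by single rows. Pcdhac2 was listed at 20.3, 35.0 and 11.9 FPKM in male DRG and 27.6, 31.3 and 34.9 FPKM in female DRG libraries, against 29.3 and 0 FPKM in male TG and 0 and 0 FPKM in female TG libraries. All 6 DRG libraries therefore had a value, while 3 of the 4 TG libraries were listed at 0 and the remaining library lay within the DRG range. The fitted difference, DRG over TG, was 3.48 ± 0.83 (SE) on the log2(FPKM + 1) scale (unadjusted p = 0.00123, adjusted p = 0.233, limma; exact permutation p = 0.0190, two-sided, where the smallest p of the 210 splits is 0.00476). Pcdhac2 passed the filter through DRG alone. Without male TG replicate 1 every TG library is listed at 0 and TG has no spread, so the adjusted p of that fit (6.76e-05, limma) was set by the listing and is not read as a difference. Pcdhac2 had 1.81 scaled counts per FPKM and kilobase, at percentile 4.04 of all genes, and whether the zeros are missing transcript or missing estimates was not tested.

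Pcdhac1 was listed at 23.0 FPKM in male DRG replicate 1 and at 18.5 FPKM in female DRG replicate 1, and at 0 in the other 4 DRG and all 4 TG libraries (adjusted p = 0.807, limma). Pcdhgc3 was listed at 0 in all 6 DRG libraries and in 3 TG libraries, and at 43.8 FPKM in female TG replicate 1, although its 159 scaled counts were the highest of the gamma cluster. Pcdhgc5 was listed at 0 in all 10 libraries. In 3 of the 5 C-type members, replicates of 1 group were thus listed both at 0 and at more than 18 FPKM.

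Among the 59 rows, that of Pcdhgc4 (chr18:37815079-37841873) was listed at the highest FPKM in every library. It was listed at 67.9, 109 and 39.7 FPKM in male DRG and 70.2, 95.6 and 125 FPKM in female DRG libraries, against 87.8 and 139 FPKM in male TG and 106 and 211 FPKM in female TG libraries. The fitted difference was -0.69 ± 0.31 (SE; unadjusted p = 0.0465, adjusted p = 0.772, limma; exact permutation p = 0.110, two-sided), and the libraries overlapped. With 32.9 scaled counts for a mean of 105 FPKM, whether these values are the level of Pcdhgc4 alone, or hold a share of other gamma isoforms, was not tested.

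**Figure D5:**
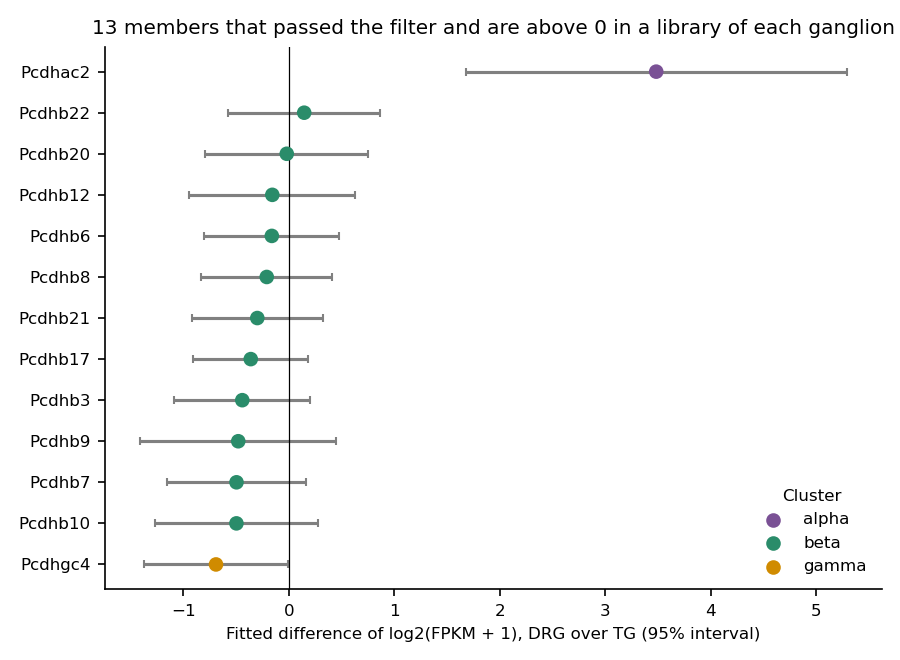
Fitted difference of log2(FPKM + 1), DRG over TG, with its 95% interval from limma, for the 13 tested members that are above 0 in at least 1 library of each ganglion. The intervals of all 11 beta members cross 0, that of Pcdhac2 lies between 1.68 and 5.29, and that of Pcdhgc4 lies between -1.37 and -0.01. The intervals are not adjusted for the number of genes, and neither member passed (adjusted p = 0.233 for Pcdhac2 and 0.772 for Pcdhgc4, limma). Pcdhac2 is listed at 0 in 3 of the 4 TG libraries.

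No tested member passed for a difference between male and female libraries. Of 14 members, 0 passed at an adjusted p of 0.05 (lowest adjusted p = 0.816, limma), against 0.0237% of all genes, and 0 had an unadjusted p below 0.05, against 4.1% of all genes. The lowest unadjusted p was that of Pcdhb17 (0.0705), with a difference of -0.49 ± 0.25 (SE), male over female. The summed beta FPKM was 14.9 ± 9.78 in male DRG and 17.5 ± 6.09 in female DRG libraries (SD, n = 3 each), and it was 22.4 and 17.5 FPKM in male TG and 24.3 and 23.0 FPKM in female TG libraries. For the interaction of ganglion and sex, 0 of 14 members passed (lowest adjusted p = 0.9999, limma), against 0% of all genes, and Pcdhb22 alone had an unadjusted p below 0.05 (0.0359), against 1.17% of all genes.

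The beta genes were also set beside magnetically sorted DRG neurons of another study, for which the authors' mean was used, with no error. Pcdhb17 and Pcdhb9 had the highest beta means in the magnetically sorted neurons, with 3.21 and 2.97 FPKM, and Pcdhb22 and Pcdhb20 followed with 1.97 and 1.82 FPKM. Over the 21 beta members above 0, the mean FPKM of all 10 libraries here, TG included, had a rank correlation of 0.24 with the mean of the magnetically sorted DRG neurons. This is a description over genes with unlike sets of samples. The paper states that correlations between studies are lower than within a study, because of batch effects such as separate library preparation. Pcdhb5 was the lowest of the 21 here (0.113 FPKM) and was at 1.41 FPKM in the magnetically sorted neurons. Alpha and gamma members were not compared with these neurons.

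Other genes of the cadherin superfamily and the factors that act on the clusters were examined as lists. Of the non-clustered protocadherins, which are adhesion molecules encoded outside the arrays, 6 of 12 were tested, 0 passed at an adjusted p of 0.05 or an unadjusted p of 0.05, and all 6 had a higher fitted mean in DRG (median 0.15 on the log2 scale). Among all genes tested, 55.7% had a lower fitted mean in DRG. Of the 6 non-clustered protocadherins, Pcdh11x had passed the filter through DRG alone, so the filter took part in setting its direction. It had 0.655 ± 0.459 FPKM in DRG and 0.558 ± 0.163 FPKM in TG libraries. Pcdh9 had 11.2 ± 4.62 FPKM in DRG libraries (SD, n = 6) and 8.69 ± 1.65 FPKM in TG libraries (SD, n = 4), and Pcdh10 had 2.94 ± 2.96 FPKM in DRG and 1.01 ± 0.403 FPKM in TG libraries (adjusted p = 0.776, limma). Of the classical and type II cadherins, 12 of 19 were tested, 0 passed, and 9 had a lower fitted mean in DRG (median -0.48), against the same 55.7%. Of these 9, 3 had an unadjusted p below 0.05, against 6.35% of all genes tested in either direction. Cdh1, which encodes E-cadherin, had 42.2 ± 19.5 FPKM in DRG and 78.2 ± 23.3 FPKM in TG libraries, and the type II cadherin Cdh9 had 3.75 ± 1.58 FPKM in DRG and 9.09 ± 2.40 FPKM in TG libraries (adjusted p = 0.416, limma). Of other large cadherins, 6 of 12 were tested and 0 passed, and the calsyntenin Clstn1 had 40.0 ± 7.17 FPKM in DRG and 42.0 ± 3.43 FPKM in TG libraries. The smallest p of this list was that of the calsyntenin Clstn3, with 20.0 ± 10.2 FPKM in DRG and 29.2 ± 8.26 FPKM in TG libraries (adjusted p = 0.806, limma).

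Among CTCF, cohesin and the proteins that load or release it, which form the loops between variable promoters and enhancers, 11 genes of 13 names were tested and 0 passed (lowest adjusted p = 0.849, limma), with 5 higher and 6 lower in DRG. The cohesin subunit Smc1a had 23.8 ± 3.26 FPKM in DRG and 23.7 ± 2.10 FPKM in TG libraries, the zinc finger factor Zfp143 (smallest p of the list) had 3.29 ± 2.86 FPKM in DRG and 4.44 ± 1.71 FPKM in TG libraries, and Ctcf itself, added to the named genes for its role, had 4.86 ± 3.53 FPKM in DRG and 3.38 ± 0.506 FPKM in TG libraries. Of the DNA and histone methylation factors, 8 of 10 were tested and 0 passed, with Wiz, a zinc finger partner of histone H3 lysine methyltransferases, at 3.99 ± 1.25 FPKM in DRG and 4.19 ± 0.737 FPKM in TG libraries, and Dnmt1, the maintenance DNA methyltransferase, at 3.40 ± 2.17 FPKM in DRG and 5.01 ± 1.23 FPKM in TG libraries. Setdb1, a histone H3 lysine methyltransferase, was listed at an FPKM of 0 in all libraries, which is not read as a lack of transcript. Of 18 intracellular and membrane partners, 18 were tested and 0 passed, and 1 had an unadjusted p below 0.05, against 6.35% of all genes tested. The highest of them, Pdcd10, had 63.2 ± 18.6 FPKM in DRG and 59.6 ± 18.2 FPKM in TG libraries. The partner at an unadjusted p below 0.05 was Ptk2b, a kinase of the focal adhesion kinase family (PYK2) that the intracellular domains of alpha and gamma protocadherins bind, with 14.1 ± 3.24 FPKM in DRG and 6.12 ± 2.005 FPKM in TG libraries (difference 1.10 ± 0.24 SE, adjusted p = 0.185, limma).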

How the data were processed

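RNA was from Avil-EGFP neurons sorted by FACS directly into lysis buffer, amplified with a SMARTer low-input kit and sequenced to 75-base reads. Per the labels and the methods, the authors aligned reads uniquely to mm10 with STAR and computed FPKM with cufflinks; the annotation used was not given in the sources used here. The authors also deposited a signal from DESeq2, the counts of a gene divided by size factors and averaged over 10 libraries, which was read as the depth behind each member. Columns of the authors' own fold changes and p-values in these tables were not used, nor were 22 per-sample columns, of which 12 belong to another study and 10 repeat the FPKM. Sequences of the members are not reported here.

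Genes that reached an FPKM of 1 in 2 or more libraries of DRG or of TG were fitted as log2(FPKM + 1), using lmFit and a trended eBayes of limma 3.58.1 (R 4.3.3), and p were adjusted by Benjamini and Hochberg over all 12637 genes. For single genes, an exact permutation test over samples, two-sided, was added. The limma steps were tested on simulated data. FPKM carry no read counts, so no counting interval is given, and the spread between libraries stands for the precision. Symbols were matched to GENCODE M21 and RefSeq (GRCm38.p6) by Ensembl ID and start.

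Named members are the 3 highest in each cluster by mean FPKM, the C-type members, those at an unadjusted p below 0.05 and the lowest of each cluster; of each list of related genes, the highest gene and that of smallest p, while cell marker lists are given mainly as sums. Further members are given where a sentence describes an array. Members and lists were chosen with earlier results of these data known. The labels' descriptions number 4 libraries of each ganglion, and a block by these numbers was run as an alternative. Deviations from the group means correlated above 0.1 within each of the 4 pairs of equal number (0.148 to 0.383). Libraries of unlike number could correlate as well: DRG number 1 stood at 0.148 with TG number 1, 0.146 with number 3 and 0.145 with number 4. These correlations therefore do not settle whether the libraries are pairs. The main fit and the permutation tests took no account of a pairing. Further alternatives were pseudocounts, filters, scalings, no trend, array weights, no term for sex and left-out libraries.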

Additional observations from a re-analysis of the deposited data

Results flagged for a closer look

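Within each ganglion, the highest and the lowest library of every member above 0 and of each cluster sum were compared with the rest by the gap to the nearest library over the range of the group, in 54 groups. About 1 in 20 groups is picked out by chance if values are normally distributed. In 6 cases the gap was past the limit. For Pcdhac2, the alpha sum and Pcdhgc3 in TG, all libraries but 1 were listed at 0, so the gap was set by the listing and the rate of 1 in 20 does not apply. Male TG replicate 1 stood above the other TG libraries for Pcdhac2 and hence for the alpha sum, at 29.3 FPKM against 0 in the other 3. Female TG replicate 1 stood above them for Pcdhgc3, at 43.8 FPKM against 0, and for Pcdhb11, at 1.57 FPKM against 0.595 in the nearest. Male TG replicate 2 stood below the other TG libraries for Pcdhb13, at 0.177 FPKM against 0.882 in the nearest. Male DRG replicate 1 stood above the other DRG libraries for Pcdhb18, at 0.629 FPKM against 0.202 in the nearest.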

How the results depend on the processing

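No member passed for DRG over TG, for sex or for the interaction under any alternative run, except that Pcdhac2 had an adjusted p below 0.05 for DRG over TG when male TG replicate 1 was left out and every TG library was listed at 0, a fit that is not read as a call (0 to 1 member when single libraries were left out). Of the members named, Pcdhac2, Pcdhb9, Pcdhb17 and Pcdhgc4 kept their direction in all alternatives that gave a value, while the size for Pcdhb9 ran from -0.67 to -0.24 when single libraries were left out; with all libraries of a setting listed at 0, the 8 numbered libraries gave no value for Pcdhac1, and no ratio was computed for the alpha sum. Pcdhb20, whose difference of -0.02 was not called, changed sign with median-ratio rescaling (0.0056), quantile normalization (0.069), array weights (0.26), without the 3 DRG libraries that stand apart (0.28) and in the 8 libraries of the replicate block by description numbers (0.071, with and without the block) or by title numbers (0.011, with and without the block), and ran from -0.19 to 0.16 when single libraries were left out. With the replicate block by description numbers, the lowest adjusted p of a member was 0.311 and 0 members were called, as without it, and the block changed no other call. The members detected numbered 14 at an FPKM of 1 and 4 at an FPKM of 5. The log2 ratio of the summed FPKM ran from -0.57 to -0.22 for beta and from -0.98 to -0.57 for gamma when single libraries were left out. The count of tested beta members lower in DRG, computed under these settings after seeing the data, ran from 8 to 10 of 11. Over all genes, array weights called 118 genes for DRG over TG and leaving out male DRG replicate 3 called 23, against 14.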
